A study of Homo sapiens with 14 samples.

Results

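The nuclear-encoded subunits of the respiratory chain were followed through transfection of HEK293T cells with 2 forms of the microRNA miR-34a. Members were taken by symbol: protein-coding genes named NDUFA, NDUFB, NDUFC, NDUFS or NDUFV plus a number, SDHA to SDHD, CYC1, and the UQCR, COX4 to COX8, ATP5F, ATP5M and ATP5P families, without pseudogenes and antisense genes. This gave 87 genes of 63140 in the count table, 36 of complex I, 4 of complex II, 10 of complex III, 18 of complex IV (with NDUFA4 and COX7A2L) and 19 of complex V. Of these, 80 had enough reads to be among the 18321 genes tested.

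The respiratory chain carries electrons from NADH and succinate to oxygen through complexes I to IV of the mitochondrial inner membrane, and the proton gradient that it builds drives ATP synthesis by complex V. Complexes I, III, IV and V join subunits encoded in the nucleus with subunits encoded by the mitochondrial genome, whereas complex II is wholly nuclear. A microRNA lowers target mRNAs mainly by pairing of its seed, near its 5′ end, with matches in their 3′ UTRs, and pairing further along the guide (supplementary pairing) can add to this.

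RNA was taken 24 h after transfection from HEK293T, cells derived from human embryonic kidney that express the large T antigen of SV40, and was made into TruSeq v2 libraries. Control cells (n = 5) received the AllStars negative control siRNA. miR-34a-WT cells (n = 5) received the duplex of the natural sequence, and miR-34a-RS cells (n = 4, replicate numbers 1, 2, 3 and 5) a duplex in which guide positions 13 and 14 were abasic rSpacer residues, which have the backbone but no base. The series asks what supplementary pairing adds to targeting. All groups were transfected cells of a single line, no untransfected group was used here, and the labels do not say whether libraries of a group came from separate cultures, so each p-value rests on library-to-library spread that may be no more than technical. Libraries held 22.24 to 36.26 M counts. All 9 HEK293T markers listed were detected and tested, while 1 of 8 blood cell markers and 1 of 6 muscle markers passed the filter on low counts. Of 10 fibroblast markers 5 passed, with COL1A2 at 0.

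The miR-34a guide and the best seed matches among the members are shown because they are the sites at which a direct effect on subunit mRNAs would be looked for. The guide is from RefSeq (GRCh38.p14), with the seed (bases 2 to 8) in capitals on the first line and the positions made abasic in miR-34a-RS in capitals on the next. Below it stand the sites that pair with bases 2 to 8 (CACTGCC, a 7mer-m8) or with an A after it as well (CACTGCCA, an 8mer), in the longest annotated 3′ UTR of each gene (GENCODE 29, GRCh38), with the seed match in capitals.
hsa-miR-34a-5p: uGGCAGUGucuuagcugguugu
hsa-miR-34a-5p, abasic positions: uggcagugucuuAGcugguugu
NDUFA9 (8mer): gcacattacagtatgagaagCACTGCCAta
NDUFC2 (8mer): cagactacccaaatctggccCACTGCCAat
NDUFB5 (7mer-m8): agctggagtcctttaaaaattCACTGCCtg
SDHC (7mer-m8, the one nearest the stop codon): ggttggtgaggctttgggtgcCACTGCCtg
ATP5F1A (7mer-m8): ttaaccaggcaggcctaaataCACTGCCca
ATP5MJ (7mer-m8): tctctttgcgctgtgggtgacCACTGCCtg

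These sites lie at chr12:4688579-4688608 (plus strand) for NDUFA9, chr11:78069711-78069740 (minus) for NDUFC2, chr3:179627283-179627312 (plus) for NDUFB5, chr1:161362825-161362854 (plus) for SDHC, chr18:46080412-46080441 (minus) for ATP5F1A and chr14:103912890-103912919 (minus) for ATP5MJ. SDHC had 4 such matches in a 3′ UTR of 12907 bases. None of the sites had AGCT, the complement of guide positions 13 to 16, at 1 to 15 bases before the seed match; of the sites shown, that of NDUFB5 had AGCT 17 bases before it. The site was in 1 of 2 annotated transcripts with a 3′ UTR for NDUFA9, 2 of 5 for NDUFC2, 1 of 6 for NDUFB5, 2 of 3 for SDHC (the site shown), 1 of 4 for ATP5F1A and 1 of 7 for ATP5MJ, and which transcripts the cells made was not measured.

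Such sites were scarce among the members. An 8mer or 7mer-m8 was present in 6 of 80 tested members (7.50%) against 17.7% of 13608 tested genes with a 3′ UTR. The members' 3′ UTRs were also short, with a median of 450 bases against 1369, and over their length they held 0.186 matches of 6 or more bases per kb against 0.268.

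In control cells, levels per length spanned a wide range within each complex. Per kb of principal transcript, the highest level was that of ATP5F1B, the catalytic β subunit of ATP synthase, at 646 CPM per kb (CPM, the counts of a gene scaled to a common library size). UQCRH, the hinge protein of complex III, reached 303 CPM per kb, COX4I1, a structural and regulatory subunit of cytochrome c oxidase, 285, and NDUFS5 255. Median levels per kb were 46.5 CPM for complex I, 26.0 for complex II, 77.4 for complex III, 111 for complex IV and 89.6 for complex V. These levels depend on the transcript chosen: SDHC, a membrane anchor of complex II, had 5.72 CPM per kb over a principal transcript of 13566 bases.

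**Figure D1:**
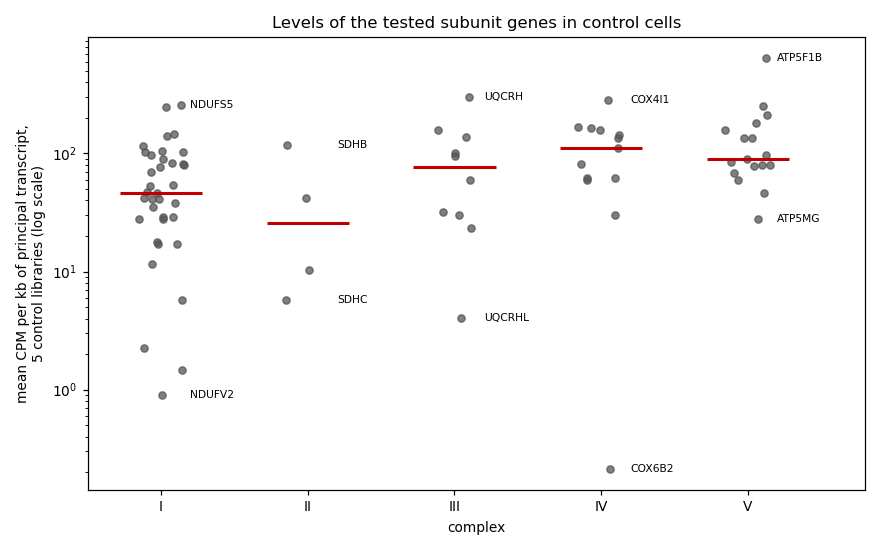
Mean level of each tested subunit gene in the 5 control libraries, in CPM per kb of its principal transcript on a log axis, by complex; red lines are medians over genes. Complex V holds the highest gene (ATP5F1B, 646), and NDUFV2, UQCRHL and COX6B2 are the lowest of complexes I, III and IV.

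The low members were mostly tissue-restricted isoforms. COX6A2 and COX7B2 had no count in any library, which allows up to 0.0069 CPM over the 434547829 counts of all libraries (3 counts, counting error only). COX4I2 had 1 count over the 14 libraries, COX7A1 27, COX8C 28, ATP5MGL 34, and the readthrough ATP5MF-PTCD1 25. Their ubiquitous partners were high: COX4I1 had 249 ± 12.1 CPM in control (SD, n = 5), COX7A2 101 ± 11.5, COX8A 84.9 ± 7.74 and COX6A1 35.5 ± 1.08. COX6B2 (0.442 CPM) stood beside COX6B1 (106 CPM), and neither isoform passed the test in any comparison. Reads that fit near-identical pseudogene copies can be lost or shared: 49 members have 188 named pseudogenes, which held 0.118% of the counts of members and pseudogenes together. UQCRHL, a near-identical copy of UQCRH, is uncertain for the same reason.

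The members together took 0.955% ± 0.012 of counts in control (SD, n = 5), 0.976% ± 0.040 under miR-34a-WT (n = 5) and 0.990% ± 0.033 under miR-34a-RS (n = 4). Their summed levels were 9604 ± 147, 9805 ± 413 and 9805 ± 296 CPM in that order, and the ranges overlapped. The sum of complex II was 294.5 to 306 CPM in control, 301 to 334 with miR-34a-WT and 311 to 319 with miR-34a-RS, so that the miR-34a-RS libraries lay above all of control and the miR-34a-WT libraries did not. miR-34a-WT replicate 2 had the highest sum of all libraries (10487 CPM) and miR-34a-RS replicate 2 the highest of its group (10104 CPM). The same libraries had the lowest share of counts from the mitochondrial genome in their groups, 2.60% and 2.19%, against 2.75% to 3.10% in control. The part of these libraries in the results was not tested beyond leaving each out: members called were then 12 for miR-34a-WT against control and 10 for miR-34a-RS against control. The shares of all tested genes called in those fits are not given here, so these counts cannot be read as particular to the members.

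**Figure D2:**
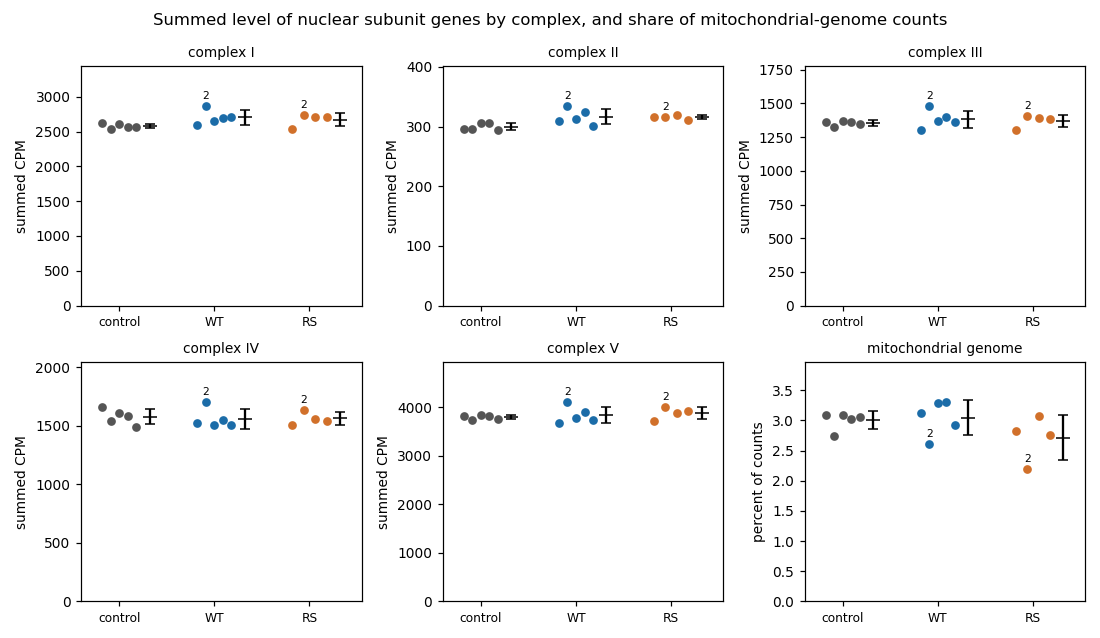
Summed CPM of the member genes of each complex, and percent of counts from the mitochondrial genome, by library (points) with mean and SD (bars); the digit 2 marks replicate 2 of each duplex. The groups overlap in each complex apart from complex II with miR-34a-RS (311 to 319 CPM against 294.5 to 306 in control).

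Against control, miR-34a-WT left most subunit mRNAs near their level. Of 80 tested members 12 rose and 3 fell (edgeR quasi-likelihood test, Benjamini-Hochberg adjusted p under 0.05 over all 18321 genes), where 40.2% of all tested genes were called, 18.9% higher and 21.3% lower. Against the same control libraries, 8 members rose and 1 fell with miR-34a-RS, where 34.6% of all tested genes were called, 16.2% higher and 18.4% lower. Between the duplexes 1 member differed, ATP5F1C, where 1.56% of tested genes were called and 1.03% were higher with miR-34a-RS. As the duplexes share their control libraries, their values are given side by side.

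The members' changes were small beside those of all genes. Members were also more abundant (median 86.1 CPM against 14.1), and the sizes of change were not compared at like abundance. The median size of the log2 fold change was 0.08 for members against 0.18 for all tested genes with miR-34a-WT, and 0.07 against 0.17 with miR-34a-RS, while the median standard error was 0.06 for members and 0.07 for all tested genes. A log2 fold change of at least 0.3 in either direction was seen for 3 members (3.75%) with miR-34a-WT against 30.6% of all tested genes, and for 2 members (2.50%) with miR-34a-RS against 27.6%. Among genes of at least 20 CPM, a limit chosen after the data were seen, 14 of 73 members (19.2%) were called with miR-34a-WT against 52.5% of all such genes (median standard errors 0.0551 and 0.0515), and 9 of 73 (12.3%) with miR-34a-RS against 45.5% (0.0582 and 0.0544). Between the duplexes 1 of 73 (1.37%) was called against 2.41%. The median log2 fold change of the members was 0.05 with miR-34a-WT and 0.04 after miR-34a-RS, against -0.02 and -0.01 over all tested genes.

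**Figure D3:**
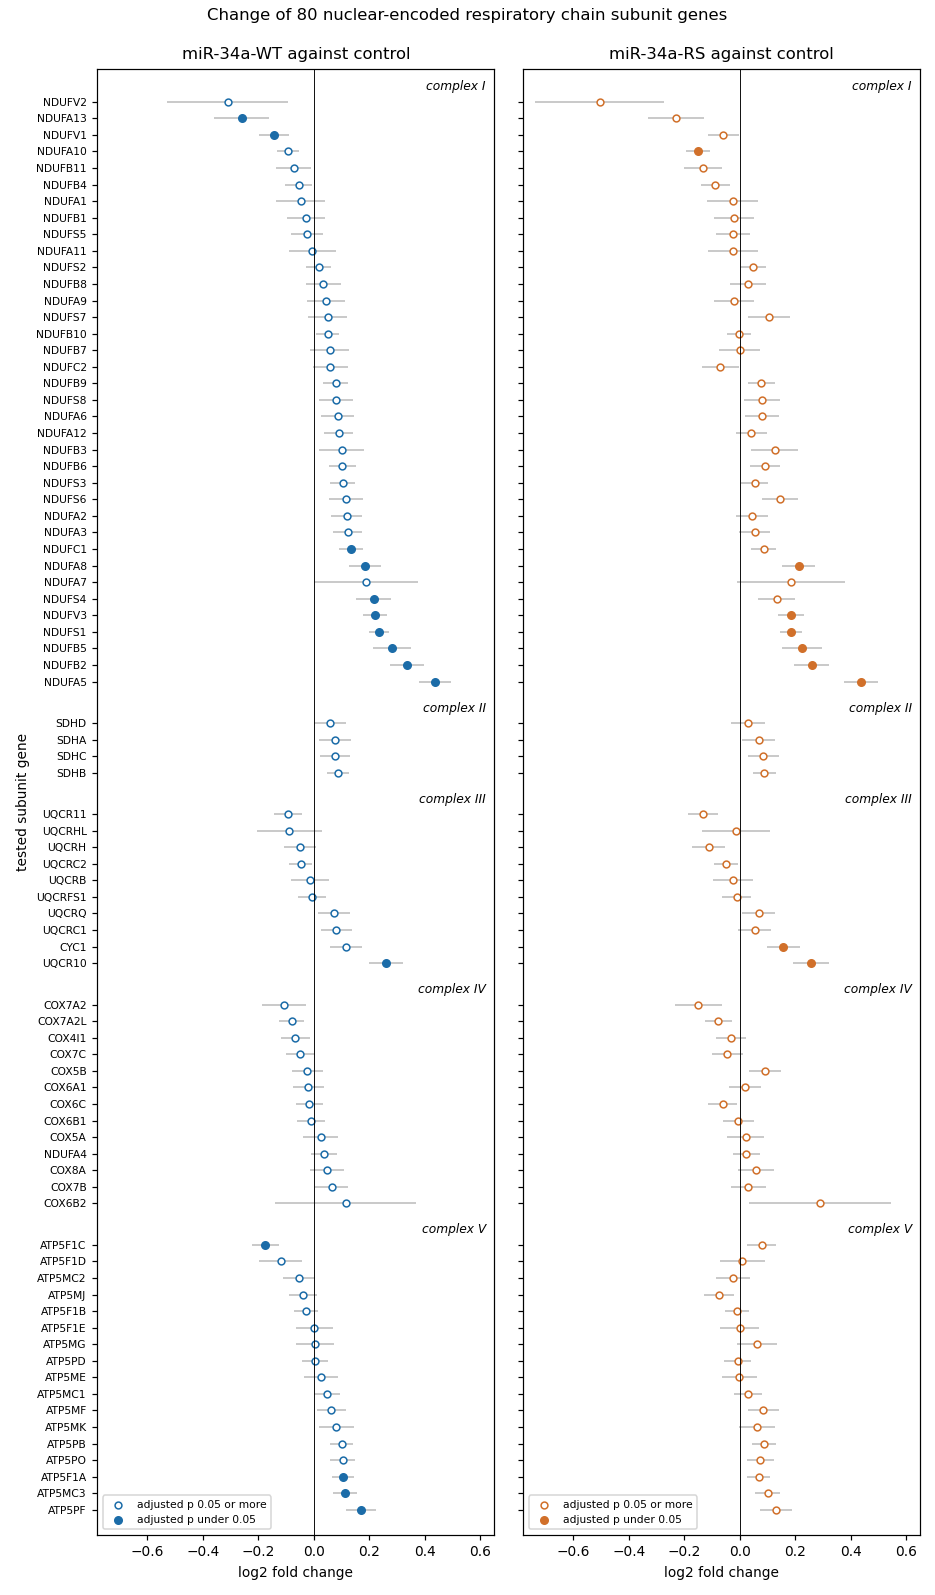
Log2 fold change against control of the 80 tested subunit genes (points) with standard errors (bars), for miR-34a-WT on the left and miR-34a-RS on the right, by complex; filled points passed adjusted p under 0.05. NDUFA5 is the highest on both sides, no gene of complex II or IV is filled, and ATP5F1C lies below 0 on the left and above it on the right.

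Complex I, the NADH dehydrogenase, held 8 of the 12 members that rose with miR-34a-WT and 2 of the 3 that fell, among 36 tested. With miR-34a-RS 6 of its genes rose and 1 fell. The called share of its 36 genes was 27.8% in the first comparison (40.2% of all tested genes) and 19.4% in the second (34.6%). Of all tested genes 18.9% rose in the first comparison and 16.2% in the second. Complex I was thus called less often than genes at large. The largest rise was that of NDUFA5, an accessory subunit of the arm that reaches into the matrix. NDUFA5 was at 71.0, 65.4, 69.2, 66.4 and 65.6 CPM in control, 96.8, 93.9, 95.9, 84.1 and 86.8 CPM with miR-34a-WT, and 106, 89.7, 85.0 and 84.6 CPM with miR-34a-RS. Every library of either duplex lay above every control library. The log2 fold change of NDUFA5 was 0.44 with each duplex (SE 0.06 for both; adjusted p = 9.93e-07 and 3.01e-06, edgeR).

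NDUFB2, an accessory subunit of the membrane arm, was at 44.0, 45.4, 53.0, 51.6 and 48.2 CPM in control, 54.2, 66.2, 61.1, 65.8 and 58.1 CPM with miR-34a-WT, and 53.7, 56.7, 61.9 and 59.5 CPM with miR-34a-RS. The groups did not overlap, though the lowest library of each duplex lay just above the highest control. Its log2 fold changes were 0.33 (SE 0.06) and 0.26 (SE 0.06). Its value is uncertain, because 83.4% of its principal transcript overlaps BRAF or NDUFB2-AS1 on the other strand and the library kit does not mark strand.

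NDUFS1, the largest iron-sulfur subunit of the NADH-oxidising end of complex I, was at 206, 206, 201, 198 and 195 CPM in control, 242, 239, 233, 234 and 236 CPM with miR-34a-WT, and 238, 231, 221 and 225 CPM with miR-34a-RS. Its spread was narrow and no duplex library reached down to control, for log2 fold changes of 0.23 (SE 0.04) and 0.18 (SE 0.04). NDUFV3, an accessory subunit of the same end, was at 79.7, 79.3, 81.6, 76.7 and 84.5 CPM in control, 93.3, 97.9, 89.1, 93.2 and 94.2 CPM with miR-34a-WT, and 85.7, 92.2, 92.9 and 94.4 CPM with miR-34a-RS. Again the groups were separate, with log2 fold changes of 0.22 and 0.18.

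The remaining complex I genes that rose with miR-34a-WT were NDUFB5 (log2 fold change 0.28, SE 0.07), NDUFS4 (0.22, SE 0.06), NDUFA8 (0.19, SE 0.06) and NDUFC1 (0.13, SE 0.04). NDUFS4 is an accessory subunit whose loss causes Leigh syndrome, and NDUFA8 a cysteine-rich subunit on the intermembrane-space side. With miR-34a-RS, NDUFB5 (0.23) and NDUFA8 (0.21) rose as well, while NDUFS4 (0.13, adjusted p = 0.124) and NDUFC1 (0.09, adjusted p = 0.162) did not pass the edgeR test. The NDUFB5 call with miR-34a-RS rested on replicate 1, without which the log2 fold change was 0.14 (adjusted p = 0.0776). With a trend over 3′ UTR length and GC content removed in limma, NDUFC1 fell to 0.01 and NDUFS4 to 0.11 with miR-34a-WT, and neither passed.

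NDUFV1, which binds FMN and takes electrons from NADH, was lower with miR-34a-WT (-0.14, SE 0.05, adjusted p = 0.0333, edgeR). NDUFV1 lay at 188 to 228 CPM in control and 174 to 193 CPM with miR-34a-WT, and its call was lost in 12 of 24 alternative settings, leaving out any 1 of several libraries among them. NDUFA13, known also as the cell death regulator GRIM-19, was counted at only 5.68 ± 0.381 CPM in control (SD, n = 5) and fell by 0.26 on the log2 scale with miR-34a-WT. Its principal transcript overlaps AC011448.1 on the same strand over 44.1% of its length, and 9 of 24 settings lost the call. NDUFA10, an accessory membrane-arm subunit, was the 1 member lower with miR-34a-RS (-0.15, SE 0.04, adjusted p = 0.0089, edgeR), at 139 to 147 CPM in control and 122 to 132 CPM with miR-34a-RS. Its value with miR-34a-WT was -0.09 (adjusted p = 0.0737), and without miR-34a-RS replicate 1 it was -0.12 (adjusted p = 0.0509). The call was also lost without the filter on low counts (-0.13, adjusted p = 0.121) and with the 3′ UTR trend removed (-0.07, adjusted p = 0.0992).

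NDUFV2, a core iron-sulfur subunit, had log2 fold changes of -0.31 (SE 0.22) and -0.50 (SE 0.23) that did not pass. It was counted at 0.836 CPM in control, far below the other core subunits, and 82.9% of its principal transcript overlaps AP005263.1 on the same strand. Whether reads were lost to that overlap was not tested. NDUFA7 (0.875 CPM) overlaps AC010323.1 over 75.9% of its length in the same way. In all, 13 members overlap other genes over at least 40% of their principal transcript.

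Complex II, succinate dehydrogenase, links the chain to the tricarboxylic acid cycle, and none of its 4 genes passed the test. SDHA, the flavoprotein that oxidises succinate, was at 21.8, 26.4, 25.3, 25.5 and 25.1 CPM in control, 25.0, 26.5, 26.1, 26.5 and 26.7 CPM with miR-34a-WT, and 23.5, 25.9, 28.6 and 26.1 CPM with miR-34a-RS. SDHB, its iron-sulfur partner, was at 142, 133, 138, 141 and 132 CPM, then 148, 151, 144, 146 and 140 CPM, then 144, 147, 152 and 141 CPM, in the same order of groups. The groups overlapped for both.
The membrane anchors gave the same picture. SDHC was at 72.1, 79.5, 80.2, 78.2 and 77.8 CPM in control, 71.5, 88.8, 81.7, 89.5 and 77.4 CPM with miR-34a-WT, and 79.9, 82.2, 81.5 and 85.5 CPM with miR-34a-RS. SDHD was at 59.3, 56.4, 62.6, 62.2 and 59.2 CPM, then 65.4, 67.7, 60.8, 61.6 and 56.6 CPM, then 69.3, 61.3, 56.4 and 57.9 CPM. All 4 genes had log2 fold changes above 0, from 0.06 to 0.09 with miR-34a-WT and from 0.03 to 0.09 with miR-34a-RS, with adjusted p from 0.0795 (SDHB, miR-34a-WT) upwards in edgeR. SDHB was the 1 gene under an unadjusted p of 0.05 with either duplex, and DESeq2 called it with both.

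In complex III, which passes electrons from ubiquinol to cytochrome c, 1 of 10 genes rose with miR-34a-WT and 2 after miR-34a-RS. UQCR10, a small accessory subunit, was at 49.0, 52.3, 59.5, 57.5 and 52.5 CPM in control, 59.9, 68.5, 67.6, 70.9 and 57.4 CPM with miR-34a-WT, and 64.6, 61.1, 70.4 and 62.5 CPM with miR-34a-RS. One miR-34a-WT library fell within the control range, and no miR-34a-RS library did. The log2 fold change of UQCR10 was 0.26 with each duplex (SE 0.06 and 0.07; adjusted p = 0.00144 and 0.00325, edgeR).

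CYC1, the haem-bearing cytochrome c1, was at 151, 169, 176, 177 and 179 CPM in control, 165, 192, 193, 188 and 185 CPM with miR-34a-WT, and 169, 190, 210 and 190 CPM with miR-34a-RS. Replicate 1 was the lowest of each group, and the groups overlapped. Its rise passed with miR-34a-RS (0.16, SE 0.06, adjusted p = 0.0431, edgeR) but not with miR-34a-WT (0.12, adjusted p = 0.108). It was lost without control replicate 1 (0.12, adjusted p = 0.112), and also without miR-34a-RS replicate 2, 3 or 5 or miR-34a-WT replicate 5.

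UQCR11 and UQCRH were nearer the low side. UQCR11 was at 40.1, 42.3, 44.4, 42.4 and 43.2 CPM in control, 38.4, 42.9, 38.4, 40.8 and 38.5 CPM with miR-34a-WT, and 35.8, 41.2, 37.5 and 40.6 CPM with miR-34a-RS. UQCRH was at 196, 183, 178, 182 and 175 CPM, then 166, 201, 155, 183 and 177 CPM, then 158, 177, 160 and 181 CPM. Neither passed in the main fit, with adjusted p of 0.0563 for UQCR11 with miR-34a-RS in edgeR. UQCR11 was called with miR-34a-RS with the replicate number as a block and in limma without the trend removed. It was also called without control replicate 1, and without miR-34a-RS replicate 2 or 5. The core proteins UQCRC1 and UQCRC2 and the Rieske iron-sulfur protein UQCRFS1 had log2 fold changes from -0.05 to 0.08 with both duplexes. With the 3′ UTR trend removed in limma, UQCRH, UQCRC1 and UQCRC2 were called against control with both duplexes.

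None of the 13 tested genes of complex IV, cytochrome c oxidase, passed in any comparison in edgeR. Nor was any of them under an unadjusted p of 0.05 in edgeR against control or between the duplexes, or called by DESeq2. With the trend over 3′ UTR length and GC content removed in limma, however, COX6C (-0.11), COX7A2 (-0.20) and COX7A2L (-0.11) were called lower and COX8A (0.13) higher with miR-34a-WT, and COX6C (-0.13) and COX7A2 (-0.22) lower with miR-34a-RS. COX4I1, among those with the smallest adjusted p, was at 268, 252, 236, 241 and 246 CPM in control, 226, 262, 227, 231 and 242 CPM with miR-34a-WT, and 218, 262, 242 and 251 CPM with miR-34a-RS. COX5B, a zinc-binding subunit, was at 94.8, 89.8, 99.6, 103 and 94.8 CPM, then 86.4, 91.9, 92.4, 103 and 99.8 CPM, then 104, 113, 98.5 and 94.8 CPM. The groups overlapped for both genes.
COX7A2 was at 118, 100.1, 102, 99.7 and 85.7 CPM in control, 96.4, 114, 82.6, 89.3 and 87.9 CPM with miR-34a-WT, and 89.9, 98.9, 83.4 and 92.9 CPM with miR-34a-RS. COX7A2L, which joins complexes III and IV into supercomplexes, was at 97.0, 88.0, 90.3, 92.1 and 89.4 CPM, then 86.8, 93.3, 85.1, 84.7 and 82.1 CPM, then 87.9, 90.3, 82.1 and 86.1 CPM. These groups overlapped too. Over the complex the log2 fold changes ran from -0.11 to 0.11 with miR-34a-WT and from -0.15 to 0.29 with miR-34a-RS, the last that of the scarce COX6B2.

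Among the 17 tested genes of complex V, ATP synthase, 3 rose and 1 fell with miR-34a-WT, and none passed with miR-34a-RS in edgeR, where ATP5MC3 and ATP5PF were the 2 under an unadjusted p of 0.05 and DESeq2 called 1. ATP5F1A, the α subunit of the F1 head, was at 565, 559, 580.0, 575 and 561 CPM in control, 572, 652, 615, 626 and 587 CPM with miR-34a-WT, and 574, 613, 597 and 599 CPM with miR-34a-RS. ATP5MC3, 1 of the genes for the proton-carrying c ring, was at 329, 323, 328, 322 and 330 CPM, then 332, 384, 337, 360 and 348 CPM, then 328, 365, 343 and 363 CPM. In ATP5MC3 every miR-34a-WT library lay above control, the lowest of them only just, while in ATP5F1A the ranges overlapped.
Both rises were small, 0.10 (SE 0.04, adjusted p = 0.0393, edgeR) for ATP5F1A and 0.11 (SE 0.04, adjusted p = 0.0428) for ATP5MC3, and were lost in 6 and 9 of 24 settings, most of which left out a single control or miR-34a-WT library. The other c-ring genes, ATP5MC1 and ATP5MC2, which encode the same mature protein, were at 0.05 and -0.05 and did not pass.

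ATP5PF, coupling factor 6 of the peripheral stalk, was at 117, 98.6, 109, 108 and 95.2 CPM in control, 122, 132, 115, 113 and 113 CPM with miR-34a-WT, and 120, 117, 112 and 115 CPM with miR-34a-RS. The groups overlapped through control replicate 1. Its log2 fold change was 0.17 with miR-34a-WT (SE 0.05, adjusted p = 0.0146, edgeR) and 0.13 with miR-34a-RS (adjusted p = 0.0809). Without control replicate 5 the first was 0.14 (adjusted p = 0.0519), and with the 3′ UTR trend removed it was 0.05.

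ATP5F1C, the γ subunit that forms the rotating central shaft, was the 1 member that differed between the duplexes. It was at 251, 225, 233, 229 and 209 CPM in control, 208, 222, 197, 197 and 194 CPM with miR-34a-WT, and 246, 257, 225 and 240.3 CPM with miR-34a-RS. All 4 miR-34a-RS libraries lay above all 5 miR-34a-WT libraries, the lowest of them only just, and both groups overlapped control.
ATP5F1C was 0.25 higher on the log2 scale with miR-34a-RS than miR-34a-WT (SE 0.05, adjusted p = 0.0104, edgeR). It fell by 0.17 with miR-34a-WT against control (SE 0.05, adjusted p = 0.0065), and its value with miR-34a-RS was 0.08 (SE 0.05, adjusted p = 0.269). Same-numbered libraries of the duplexes deviated together, and with the replicate number as a block, where 6.84% of all genes were called between the duplexes, the difference was 0.25 (adjusted p = 0.000115). Without miR-34a-RS replicate 2 it was 0.22 (adjusted p = 0.0706), and no member was then called. The other F1 genes did not pass and went both ways. ATP5F1D (δ) was 0.13 higher and ATP5F1B (β) 0.02 higher with miR-34a-RS than miR-34a-WT, while ATP5F1A (α) was at -0.04 and ATP5F1E at -0.002.

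**Figure D4:**
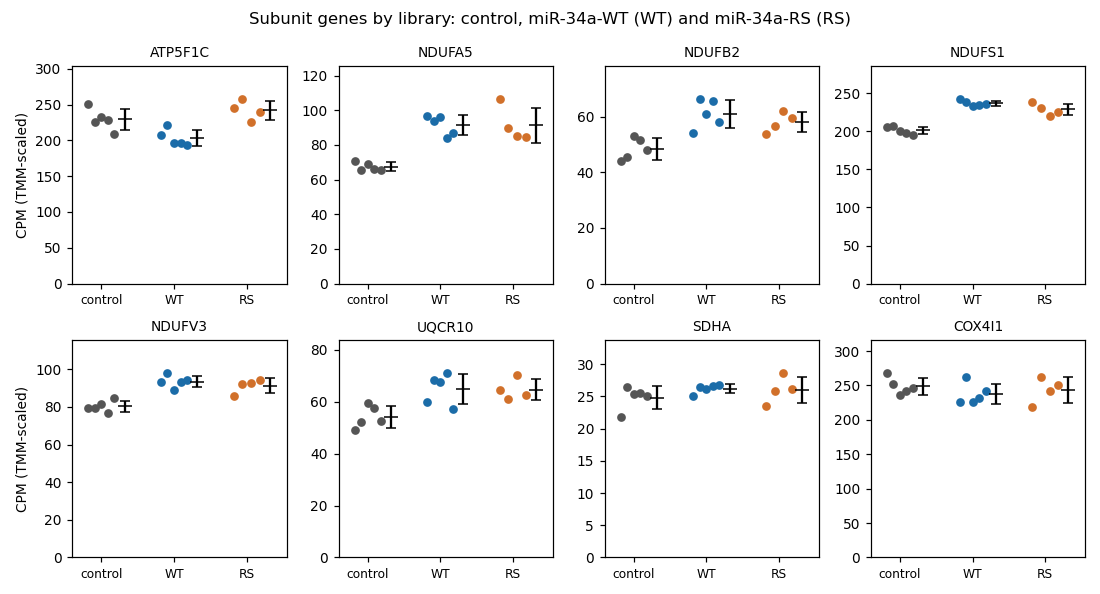
TMM-scaled CPM of 8 subunit genes in each library (points) with group mean and SD (bars), for control, miR-34a-WT (WT) and miR-34a-RS (RS). NDUFA5, NDUFB2, NDUFS1 and NDUFV3 lie above control with both duplexes, ATP5F1C differs between the duplexes, and SDHA and COX4I1 overlap throughout.

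The seed matches did not mark the members that fell. Of the 6 tested members with an 8mer or 7mer-m8, none fell with either duplex (edgeR, at an unadjusted p of 0.05 too; DESeq2 called 0 lower as well), where 45.5% of all 2413 tested genes with such a match fell after miR-34a-WT and 41.3% after miR-34a-RS. NDUFB5 (0.28) and ATP5F1A (0.10) rose with miR-34a-WT, and NDUFA9 (0.04), NDUFC2 (0.06), SDHC (0.08) and ATP5MJ (-0.04) did not pass. NDUFA9 and NDUFC2, accessory subunits of complex I that carry the 8mers shown above, had values of -0.02 and -0.07 with miR-34a-RS. NDUFA13, NDUFV1 and ATP5F1C, the members that fell with miR-34a-WT, had no match of 6 bases in the 3′ UTR searched.

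As ATP5F1C had no seed match in either protein-coding transcript, the longest run complementary to any stretch of the guide was looked up after its values were seen. It was 8 bases, pairing with guide positions 13 to 20, which include both positions that are abasic in miR-34a-RS. It lay in the coding sequence, in exon 3, at chr10:7797146-7797153 (GRCh38, plus strand), shown in capitals within 30 bases of the transcript.
ATP5F1C: gagagagctgaAACCAGCTcgaatatatgg
AACCAGCT occurred in protein-coding transcripts of 11.2% of 13687 tested genes and of 4 of 80 tested members, so the run is common. Any 8-base complement of the guide that covers positions 13 and 14 occurred in 31.6% of these genes (4325) and in 17 members (21.2%). Whether it takes part in the difference was not tested.

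Promoters were searched for 3 words of factors known for respiratory gene control, on both strands, in the 300 bases around the start that RefSeq gives for 68 members. The ETS word CCGGAAG, to which GABP (NRF-2) binds, was in 20 of 68 (29.4%) against 10.7% of 27305 promoters. The 27305 include promoters of genes not tested here, so the shares were not compared at like expression. AAGATGG, the core of the YY1 word, was in 16 (23.5%) against 6.06%, and GCGCATG, from the NRF1 word, in 14 (20.6%) against 4.67%. Of the 10 searched members that rose with miR-34a-WT, 2 had each of these words, beside 17 with the ETS word, 14 with the YY1 word and 11 with the NRF1 word of the 52 that were not called.

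The mitochondrially encoded partners of these subunits moved little with miR-34a-WT: none of 13 passed in edgeR or DESeq2 or was under an unadjusted p of 0.05, with log2 fold changes from -0.04 to 0.12. With miR-34a-RS 2 fell, MT-ND3 (-0.19) and MT-ND6 (-0.17), both subunits of complex I (edgeR; DESeq2 called MT-ND3 alone), and the others ranged down to -0.28. The share of mitochondrial-genome counts was 2.71% ± 0.374 with miR-34a-RS (SD, n = 4) against 3.0% ± 0.145 in control (n = 5), and was lowest in miR-34a-RS replicate 2. Without that library neither passed, at -0.15 for MT-ND3 (adjusted p = 0.062) and -0.11 for MT-ND6 (adjusted p = 0.189). Between the duplexes their values were -0.24 to -0.10 with none called by edgeR or DESeq2, though 6 were under an unadjusted p of 0.05.

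The factors that build the complexes and the other mitochondrial lists were called about as often as genes at large when pooled. Over all 146 tested genes of these lists, the mitochondrially encoded ones included, 35.6% passed after miR-34a-WT (40.2% of all tested genes). After miR-34a-RS 31.5% passed (34.6%). Single lists differed from this. After miR-34a-WT 58.8% of the tricarboxylic acid cycle list passed and 0 of 13 mitochondrially encoded genes. After miR-34a-RS 52.9% of that cycle passed and 3 of 30 genes of import, cristae and proteases. With either duplex more list genes rose than fell, while all tested genes leaned lower. The counts per list are given as descriptions. Of 18 assembly factors of complex I, 3 rose and 2 fell with miR-34a-WT, and 4 rose and 2 fell with miR-34a-RS. DMAC2, needed for the distal membrane arm, fell by 0.68 with miR-34a-WT and by 0.69 with miR-34a-RS, while NUBPL, which serves its iron-sulfur clusters, rose by 0.43 and 0.42. For complex II, SDHAF4, which helps the flavinylated SDHA into the complex, rose by 0.63 and 0.54. For complex III, 2 of 6 factors fell with miR-34a-WT and 3 after miR-34a-RS, among them TTC19 (-0.58 and -0.66).
For complex IV 8 of 24 factors rose with each duplex and none fell, COX11 (0.23 and 0.17), COX18 (0.25 and 0.26), COA5 (0.23 and 0.23) and COA3 (0.19 and 0.13) among them. For ATP synthase, ATPAF1, a chaperone of the β subunit, fell by 0.40 and 0.46, while ATPAF2, a chaperone of the α subunit, rose by 0.21 and 0.18.

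Of the other mitochondrial lists, 3 of 12 carriers and quinone genes rose with miR-34a-WT and 4 after miR-34a-RS, with none lower. COQ7, a hydroxylase of ubiquinone synthesis, rose by 0.36 and 0.29, and NDUFAB1, the acyl carrier protein that is also a complex I subunit but outside the naming rule, by 0.27 and 0.22. Of 16 regulators of mitochondrial biogenesis 5 fell and 2 rose with each duplex: PPARGC1B, a coactivator of respiratory genes, fell by 0.37 and 0.41 and TWNK, the helicase of mitochondrial DNA, by 0.38 and 0.37, beside MYC (-0.30 and -0.32) and the coactivator PPRC1 (-0.32 and -0.26). In the tricarboxylic acid cycle 6 of 17 rose and 4 fell with miR-34a-WT and 6 rose and 3 fell with miR-34a-RS. Of 30 genes of import, cristae and proteases, 10 rose and 2 fell with miR-34a-WT and 3 rose with miR-34a-RS, CHCHD3 of the cristae junction most (0.49 and 0.47). No gene of these lists was called between the duplexes in edgeR. Over the 146 tested genes of the lists, mitochondrially encoded ones included, 15 were under an unadjusted p of 0.05, and DESeq2 called 2.

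Over the mitochondrially encoded partners and these lists together, 20 tested genes had an 8mer or 7mer-m8. Of these 6 fell with miR-34a-WT, among them DMAC2, TTC19, ATPAF1 and PPARGC1B, and none rose. Of all 2413 tested genes with such a match 45.5% fell. Of the 126 others, 36 rose and 10 fell. Of all tested genes 18.9% rose with miR-34a-WT and 21.3% fell, and of tested genes whose 3′ UTR had no match 17.3% fell. The 126 others include genes with weaker seed matches, MYC and IDH3A among those that fell, and the mitochondrially encoded genes without a 3′ UTR. Among the subunits with such a match 0 of 6 fell, and the difference from these lists was not tested.

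**Figure D5:**
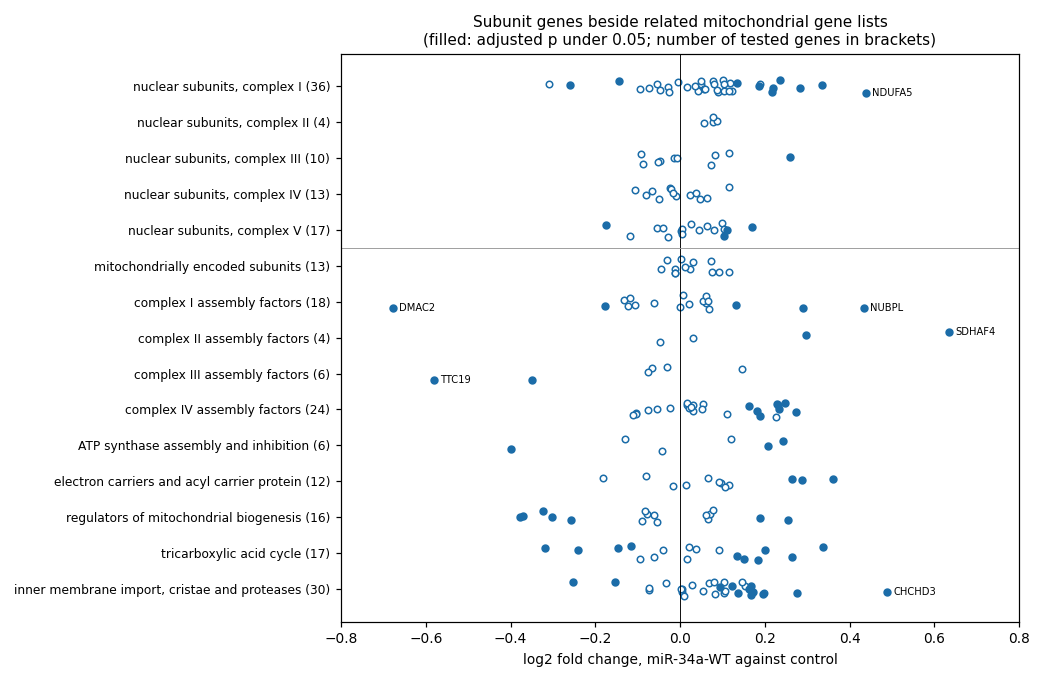
Log2 fold change of miR-34a-WT against control for the subunit genes by complex (above the line) and for related mitochondrial gene lists (below it); each point is a tested gene, filled where adjusted p was under 0.05. DMAC2 (-0.68), TTC19 (-0.58) and SDHAF4 (0.63) lie outside the range of the subunits, which runs from -0.31 to 0.44.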

How the data were processed

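Per the labels' protocols, RNA of 14 libraries was prepared with the TruSeq RNA v2 kit. The authors deposited whole-number read counts per gene, made per the submitters' processing notes with STAR 2.7.11a and featureCounts of Subread 2.0.3 on GRCh38 (edgeR 3.42.4 is listed too). The annotation release and strand setting are not given in the sources used here. Gene type, transcript length and 3′ UTRs came from GENCODE 29, whose genes held 99.7% of counts.

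All genes were fitted with edgeR 4.0.16 in R 4.3.3 (TMM, filterByExpr, robust quasi-likelihood, 1 fit of 3 group means over all libraries, adjustment over 18321 genes, threshold 0.05), tested on simulated data. CPM are TMM-scaled, and the biological coefficient of variation was 0.062. No replicate pair agreed within sampling noise (chi-square per degree of freedom 2.72 to 14.28 over 26 pairs). Alternatives used DESeq2 1.42.0, limma 3.58.1, other scalings, filters and thresholds, a replicate block and leaving out each library.

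Replicate numbers paired miR-34a-RS with miR-34a-WT (correlations of deviations 0.373 to 0.716 over 4 pairs), as the data and not the labels show. The members and lists were chosen with earlier results of these data known. Every library value is given for the 4 members per complex with the smallest adjusted p and for members called between the duplexes. Fold changes are given for other called members of at least 0.3, seed-match carriers, isoforms, members not tested and up to 4 genes per list, and for the other called members beyond this rule.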

Additional observations from a re-analysis of the deposited data

Results flagged for a closer look

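CYC1 in miR-34a-WT replicate 1 stood apart from the rest of its group, at 165 CPM where the nearest of the other 4 libraries was at 185 CPM. Of 60 groups of libraries looked at in this way, it alone was flagged, where chance alone flags about 1 in 20. Replicate 1 was also the lowest library for CYC1 in control (151 CPM) and with miR-34a-RS (169 CPM).

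ATP5F1C had opposite signs against control with the duplexes, though its value with miR-34a-RS did not pass (0.08, adjusted p = 0.269, edgeR). The difference itself was tested: miR-34a-RS was 0.25 higher than miR-34a-WT on the log2 scale (adjusted p = 0.0104, edgeR). All 4 miR-34a-RS libraries lay above all 5 miR-34a-WT libraries, the lowest only just. Without miR-34a-RS replicate 2 the difference was 0.22 (adjusted p = 0.0706, edgeR).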

How the results depend on the processing

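In each setting run more members rose than fell in the 3 comparisons, apart from 2 settings with no call and 1 with a call each way, all between the duplexes. For miR-34a-WT against control the count of 15 became 8 at an adjusted p of 0.01, 5 with an absolute log2 fold change of at least 0.25, and 28 (22 higher, 6 lower) with the 3′ UTR trend removed, against 16 in limma without that step, which was chosen after seeing the data. It ranged from 10 to 19 when each library was left out. For miR-34a-RS against control the count of 9 became 3 with the fold limit and 18 (14 higher, 4 lower) with the trend removed, and ranged from 8 to 14, the last without control replicate 1 (11 higher, 3 lower). Between the duplexes the count of 1 became 0 at an adjusted p of 0.01 and 2 with the trend removed (UQCRC1 lower), and ranged from 0 to 1. Without the filter on low counts the first 2 counts were 11 and 10, and with DESeq2 18 and 11. The causes were not tested. Shares of all tested genes called are not given beside these counts. Changes in the counts therefore cannot be read as particular to the members.

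With the replicate number as a block, the counts were 25 (21 higher, 4 lower), 15 (12 higher, 3 lower) and 1. The same limit holds for the block counts against control. CYC1 was then called with miR-34a-WT too (0.12, adjusted p = 0.00239). Between the duplexes all 4 miR-34a-RS libraries correlated best with their own number. Against control the correlations of same-numbered libraries ran from -0.156 to 0.557 for miR-34a-WT, with 3 of 5 best with their own number, and from -0.002 to 0.478 for miR-34a-RS, with 2 of 4. Their means were 0.291 and 0.273, against -0.071 and -0.07 for libraries of unlike number, so pairing with control was partial.

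Of 26 changes of single members, each under 24 settings, 14 kept their call and direction in every setting, NDUFA5, NDUFB2, NDUFS1, NDUFV3, NDUFA8 and UQCR10 with both duplexes among them. ATP5F1C with miR-34a-RS against control, not called, changed sign to -0.0104 with the trend removed. Depth limits NDUFV2, NDUFA7 and COX6B2, each under 1 CPM.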
